A study of Rattus norvegicus with 18 samples.

Results

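DDMB was set against its DMSO control, VC_1, in rat primary hepatocytes, on the 6 arrays of the series that share 1 slide with each other. DDMB is the submitters' code for 1 of 4 related compounds, which the study title calls p-dialkoxy chlorobenzenes; the others are DDEB, CDMB and CDEB. The genes described are those whose probe was well above background on all 3 DDMB or all 3 VC_1 arrays: 20905 of the 21574 genes that entered the fit, and 10586 of these have a plain gene symbol. A transcript without a matched gene name counts as a gene of its own, so 1 gene can be counted more than once. The rule used detection alone, not the size of a difference. Just inside it stood 73 genes detected on all 3 arrays of 1 group and on none of the other, 8 with DDMB and 65 in VC_1, and just outside it 103 genes detected on 4 of the 6 arrays.

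The DDMB cultures received 300 µM of the compound for 24 h, after 24 h of preculture, and the VC_1 cultures received DMSO on the same schedule. All cells were cryopreserved hepatocytes of male Sprague Dawley rats, and each array was labelled in a single colour, Cy3, from 100 ng of total RNA. The design text speaks of independent experiments but not of different animals, so the p-values rest on the spread from culture to culture, whatever its source. Another DMSO group, VC_2, serves DDEB on another lot of arrays, and the whole series holds 18 arrays in 6 groups of 3.

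Hepatocytes take up fat, burn it in mitochondria and peroxisomes, make glucose and urea from amino acids, and secrete most proteins of the blood plasma. They also clear foreign compounds with cytochrome P450 enzymes, which are induced through receptors such as CAR, PXR and the AhR, while the fatty acid sensor PPARalpha induces the enzymes of fat oxidation. Cells with damaged proteins raise chaperones and the proteasome. In culture, isolated hepatocytes lose part of this program over days.

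All 10 hepatocyte markers, among them Alb and Hnf4a, were well above background in both groups, with summed levels of 2147 to 2931 with DDMB and 2160 to 2830 in VC_1 (times the array's 75th percentile). Of the markers of other cells, 6 of 17 for macrophages, 4 of 15 for endothelium, 9 of 17 for stellate cells and 0 of 10 for neutrophils were above background on all 3 DDMB arrays, against 7, 5, 9 and 0 on all 3 VC_1 arrays. The counts with DDMB and in VC_1 were 6 and 7 of 12 for cholangiocytes, 3 and 3 of 16 for lymphocytes, and 3 and 3 of 8 for erythroid cells. Defining markers such as Cd163, Marco, Stab2, Lyve1, Lrat and Gfap were among those not detected by the rule. Others on the same lists were detected by it, among them Clec4f, Cd68, Kdr, Cdh5, Reln, Col3a1 and Krt7. The stellate and fibroblast sum ran from 5.91 to 8.33 with DDMB and from 8.25 to 12.8 in VC_1. In bulk RNA, fewer cells of a type and less RNA per cell cannot be told apart.

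All levels below are log2 processed signals minus the 75th percentile of the array, so 0 is the 75th percentile, and all changes are DDMB minus VC_1 on this scale. A gene was called where limma's moderated test over all 18 arrays gave a Benjamini-Hochberg adjusted p below 0.05; "rose" and "fell" are used of called genes only. A range in parentheses after the median of a gene list is that of the 6 fits that each leave out 1 of the DDMB and VC_1 arrays. Probe spots well above background made up 62.3% to 63.3% of each DDMB array and 63.0% to 63.7% of each VC_1 array (exact permutation p = 0.3, two-sided, where 3 against 3 arrays cannot go below 0.1). The VC_1 arrays took the first 3 places of the slide and the DDMB arrays the next 3, so place and treatment cannot be told apart. The 6 arrays were close to each other, with Pearson correlations of 0.986 to 0.997 over genes. The first principal component, 52.7% of the variance, ran within both groups: DDMB 1, 2 and 3 lay at -36.8, 30.4 and 3.27, and VC_1 1, 2 and 3 at -24.9, -12.6 and 40.6. The order of the arrays on it was that of their 75th percentile intensity. The second component, 20.6%, separated the groups, with DDMB at -11.7, -14.8 and -24.7 and VC_1 at 16.3, 17.1 and 17.8.

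**Figure D1:**
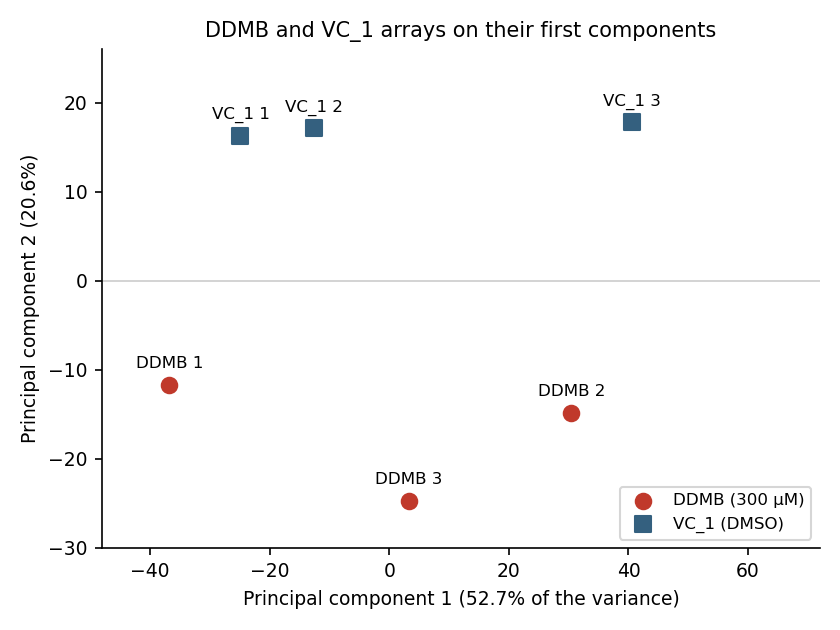
Scores of the 3 DDMB arrays (circles) and the 3 VC_1 arrays (squares) on the first and second principal components of the log2 signals, in arbitrary units, with the share of variance on each axis. The groups part on the second component, at -11.7 or below with DDMB and 16.3 or above in VC_1, and overlap along the first.

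DDMB changed 120 genes, 0.556% of the genes tested, of which 50 rose (0.232%) and 70 fell (0.324%). The changes were modest: 18 of the 120 reached 2-fold, 6 upward and 12 downward, 58 stayed below 1.5-fold, and the median size was 0.62 on the log2 scale. The median change of all genes was 0.01, and the 1st and 99th percentiles of the genes described were -0.76 and 0.54. Of the called genes, 81 have a plain symbol, 35 that rose and 46 that fell. The other 39 have none, and some of them may be further entries of a gene already counted. For each of the 120, all DDMB arrays lay on 1 side of all VC_1 arrays, as they did for 14.3% of all genes. In limma, 9.9% of all genes had an unadjusted p below 0.05, 5.71% higher and 4.19% lower. These shares are the background of every unadjusted list count given below. Where 23 called genes had further probes, every probe pointed the same way, and in 9 of the 23 another probe passed the test as well. Sizes could differ. The further probe gave 0.10 against 0.48 for Uhmk1, 0.16 against 0.40 for Lyrm7 and 0.30 against 0.62 for Pcsk5. For Bco2 it gave -0.33 against -0.58, and for Cyp3a23-3a1 a larger change, 0.70 against 0.53.

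The calls rest on the spread estimated over all 18 arrays. The groups differed in spread: the median standard deviation over genes was 0.136 with DDMB and 0.148 in VC_1. It was 0.0951 with CDMB, 0.0739 with CDEB, 0.141 in VC_2 and 0.189 with DDEB. The shared estimate is thus not the spread of the DDMB and VC_1 arrays alone. A limma fit to the 6 arrays alone called 0 genes, with 1576 at an unadjusted p below 0.05 and a lowest adjusted p of 0.223. With 1 array left out of the 18-array fit, 39 genes were called without DDMB 3, 42 without VC_1 2, 53 without VC_1 1, 74 without DDMB 2, 83 without VC_1 3 and 204 without DDMB 1. The calls of 34 genes were kept in every 1 of these fits, 22 of them with a plain symbol: Crip1, Lyrm7, Nefm, Mgst3, Npw, Selenop, Hspb1, Calml4, Pla1a, Cyp2c11, Tat, Abhd11-as1, Aldh3a1, Ihh, Ass1, Bco2, Slc9a9, Crat, Slc17a4, Omd, Sstr3 and Pcsk5. Since all DDMB arrays of each called gene lay on 1 side of all VC_1 arrays, no sign could turn in these fits.

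**Figure D2:**
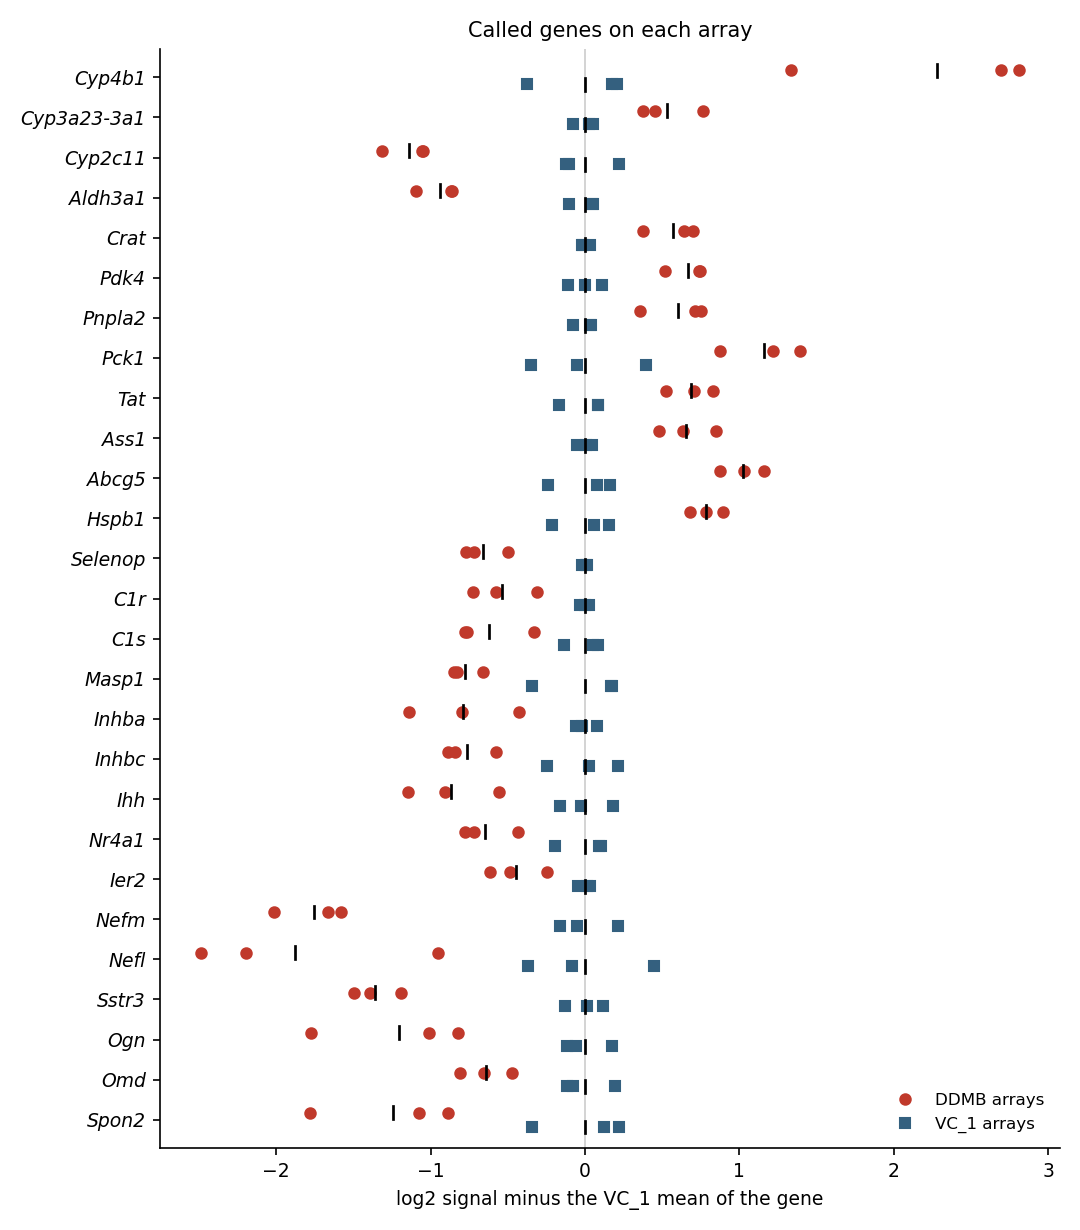
Log2 signal of 27 called genes on each DDMB array (circles, upper row of each gene) and each VC_1 array (squares, lower row), minus the VC_1 mean of the gene; short black lines are group means of 3 arrays. No gene's groups overlap, and Cyp4b1 lies farthest to the right while Nefl lies farthest to the left.

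Among the cytochrome P450 genes, 1 rose steeply, 1 rose mildly and 1 fell. Cyp4b1, which oxidises fatty acids and some foreign compounds, measured -2.79, -1.43 and -1.31 on the DDMB arrays, against -4.50, -3.95 and -3.92 on the VC_1 arrays. Every DDMB value lay above every VC_1 value, with DDMB 1 well below the other DDMB arrays, and the gene rose by 2.28 ± 0.35 (SE; 4.86-fold, limma adjusted p = 0.00802). A further Cyp4b1 probe gave 1.56.

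Cyp3a23-3a1, a PXR-induced enzyme that clears many drugs, stood at 7.64, 7.72 and 8.03 with DDMB and at 7.18, 7.29 and 7.32 in VC_1. It rose by 0.53 ± 0.10 (adjusted p = 0.0331). Cyp2c11, the main male-specific P450 of rat liver, stood at 2.94, 3.20 and 3.21 with DDMB and at 4.13, 4.15 and 4.47 in VC_1. It fell by 1.14 ± 0.14 on the log2 scale (adjusted p = 0.00158) and its DDMB arrays lay far below all VC_1 arrays. The Cyp1 to Cyp3 families, 32 measured genes, held no further call. Their median change was -0.03, but -0.30 without VC_1 3, -0.27 without DDMB 1 and 0.09 without DDMB 2.

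The nearest miss was Cyp2b2, the CAR-induced phenobarbital enzyme, at 4.02, 3.25 and 4.15 with DDMB and 5.33, 5.43 and 4.57 in VC_1. Its groups did not overlap, but the change of -1.30 ± 0.29 had an adjusted p of 0.0679. The other classic induction markers did not pass (Cyp2b1 was not measured): Cyp1a1 gave 0.74 ± 0.64, Cyp1a2 -0.30 ± 0.23, Cyp2e1 0.27 ± 0.81, and the PPARalpha-induced Cyp4a1 and Cyp4a3 gave 0.16 ± 0.14 and 0.23 ± 0.10. Cyp26a1, which breaks down retinoic acid, gave 2.19 ± 0.71 (adjusted p = 0.247).

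Of 33 measured CAR and PXR targets, Cyp3a23-3a1 alone was called, the arrays of 5 lay without overlap above VC_1, against 8.75% of all genes, and of 5 below, against 5.53%. Their median was 0.03, but -0.09 without VC_1 3 and 0.14 without DDMB 2. Of 14 AhR targets, Aldh3a1, an aldehyde dehydrogenase, was called. It stood at -4.19, -3.95 and -3.96 with DDMB and at -3.05, -3.04 and -3.20 in VC_1, and fell by 0.94 ± 0.11 on the log2 scale (adjusted p = 0.00118). Among the AhR targets that did not pass, Ahrr gave -1.14 and Slc7a5 -0.86 (adjusted p = 0.0679).

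Conjugation was represented by Mgst3, a membrane-bound glutathione transferase and peroxidase. It stood at 5.61, 5.51 and 5.57 with DDMB and at 6.00, 5.99 and 5.97 in VC_1, and fell by 0.42 ± 0.05 on the log2 scale (adjusted p = 0.00158). It was the only 1 of 22 measured glutathione transferase genes to be called, and 18 of the 22 had positive changes. Their median was 0.21, but lower in every fit that left out 1 array (0.11 to 0.17). Gstp1 gave -0.85 ± 0.18 (adjusted p = 0.062). Fmo5, a flavin-containing monooxygenase, rose by 0.33 ± 0.06 (adjusted p = 0.0254).

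The P450 calls differed in how they stood without single arrays. Cyp2c11, Aldh3a1 and Mgst3 kept their calls throughout, and Cyp4b1 lost its call without DDMB 3 (adjusted p = 0.0548) and without VC_1 1 (0.0529). Cyp3a23-3a1 and Fmo5 kept theirs only without DDMB 1; without any other array their adjusted p ran from 0.0645 to 0.167.

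In fat oxidation and fuel choice, Crat, Pdk4, Pnpla2 and Abcd3 rose. Crat, which trades acetyl groups between carnitine and coenzyme A, measured 4.80, 5.12 and 5.06 with DDMB and 4.46, 4.41 and 4.40 in VC_1. It rose by 0.57 ± 0.07 (adjusted p = 0.0023), and its VC_1 arrays were far tighter than its DDMB arrays.

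Pdk4, the kinase that shuts pyruvate dehydrogenase when fat is burned, measured -3.0, -2.78 and -2.78 with DDMB and -3.63, -3.42 and -3.52 in VC_1. It rose by 0.67 ± 0.13 (adjusted p = 0.04). Pnpla2, the first lipase of stored triglyceride, measured 2.68, 3.04 and 3.08 with DDMB and 2.25, 2.37 and 2.36 in VC_1. It rose by 0.61 ± 0.12 (adjusted p = 0.0341), and Abcd3, a peroxisomal fatty acid transporter, rose by 0.40 ± 0.08 (adjusted p = 0.0489).

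Beyond the called genes, the whole PPARalpha target list leaned upward. Of its 55 measured members, 3 were called, all higher, Crat and Pdk4 among them, 42 had positive changes and the median was 0.18. At an unadjusted p below 0.05, 23 of the 55 were higher and 2 lower, against 5.71% and 4.19% of all genes; the higher count was 12 without DDMB 3 and 15 without VC_1 3. The arrays of 17 lay without overlap above VC_1 and of 3 below, against 8.75% and 5.53% of all genes. The largest changes among members not called were those of the thioesterase Acot1 at 0.85 (adjusted p = 0.283), the lipid droplet protein Plin5 at 0.63, the carnitine transferase Cpt1a at 0.60 ± 0.22 (adjusted p = 0.314) and the isomerase Eci1 at 0.51.

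The 27 measured genes of mitochondrial beta-oxidation, which overlap that list, had 23 positive changes and a median of 0.17. The arrays of 9 lay without overlap above VC_1 and of 0 below, against 8.75% and 5.53% of all genes. Hadhb, a subunit of the trifunctional enzyme, gave 0.51 ± 0.12 (adjusted p = 0.0861), and Acsm1 gave -0.53. Of 34 peroxisomal genes, 28 had positive changes, with a median of 0.09, and Abcd3 was among those called; the median was 0.04 without VC_1 3 and 0.14 without DDMB 2. Leaving out single arrays kept the median of the PPARalpha list between 0.14 and 0.23 and that of mitochondrial beta-oxidation between 0.13 and 0.22.

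The 19 measured genes of fatty acid synthesis held no call and a median of -0.14. In limma, 1 was higher and 5 lower at an unadjusted p below 0.05, against 5.71% and 4.19% of all genes. Thrsp gave -0.86, Acaca, the acetyl-CoA carboxylase, -0.50, and Srebf1, its main regulator, -0.49. The median was -0.06 without VC_1 3 and -0.09 without DDMB 3, and without DDMB 3 the lower count was 1. Scd, the stearoyl-CoA desaturase, gave 0.17 ± 0.07 (adjusted p = 0.405). The 9 genes of ketone body metabolism had a median of -0.08 (-0.15 to -0.05). Of Crat, Pdk4, Pnpla2 and Abcd3, Crat alone kept its call without each array. Pdk4 and Pnpla2 lost it without any array other than DDMB 1 (adjusted p = 0.0845 to 0.211), and Abcd3 without each of the 6 (0.0541 to 0.265).

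Glucose and amino acid metabolism gave 6 further rises. Pck1, which makes phosphoenolpyruvate in the step that commits carbon to glucose, stood at -2.65, -2.13 and -2.30 with DDMB and -3.12, -3.87 and -3.57 in VC_1. It rose by 1.16 ± 0.20 (2.23-fold, adjusted p = 0.0175). G6pc1, the last enzyme of glucose output, gave 1.02 ± 0.42 (adjusted p = 0.409). The gluconeogenesis list of 18 genes, with Pck1 higher and the nuclear receptor Nr4a1 lower, had a median of 0.03 (-0.06 to 0.09).

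Tat, which starts tyrosine breakdown and is a classic glucocorticoid target, stood at 2.71, 2.89 and 3.01 with DDMB and 2.27, 2.27 and 2.01 in VC_1, a rise of 0.68 ± 0.10 (adjusted p = 0.00473). Ass1 of the urea cycle stood at 5.78, 5.93 and 6.15 with DDMB and 5.31, 5.25 and 5.35 in VC_1, a rise of 0.65 ± 0.09 (adjusted p = 0.00473). In both genes the lowest DDMB array lay well clear of the highest VC_1 array.

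Hpd, the next enzyme of tyrosine breakdown, stood at 6.19, 6.34 and 6.46 with DDMB and 6.02, 5.91 and 5.89 in VC_1 (rise of 0.39 ± 0.07, adjusted p = 0.0206). Gls2, the liver glutaminase, stood at 3.79, 3.91 and 3.91 with DDMB and 3.49, 3.48 and 3.48 in VC_1 (0.39 ± 0.06, adjusted p = 0.00712). Bckdhb, of the branched-chain keto acid dehydrogenase, stood at 3.79, 3.78 and 3.87 with DDMB and 3.48, 3.41 and 3.45 in VC_1 (0.37 ± 0.06, adjusted p = 0.00698). The 3 rises were small and of like size, with no overlap of the groups.

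Of 47 measured genes of amino acid breakdown, 4 were called, all higher (Tat, Hpd, Gls2 and Bckdhb), and the median was 0.06 (0.01 to 0.10). Of 18 genes known for their periportal place in the liver lobule, 4 were called, all higher (Ass1, Gls2, Tat and Pck1), and the median was 0.12, though -0.02 without VC_1 3 and 0.26 without DDMB 2. The 16 pericentral genes held no call and a median of -0.07 (-0.12 to -0.05). The 7 urea cycle genes had a median of 0.22, but -0.07 without VC_1 3 and 0.45 without DDMB 2. Tat and Ass1 kept their calls without each array. Pck1 lost its call without DDMB 2, DDMB 3, VC_1 2 or VC_1 3 (adjusted p = 0.0606 to 0.102), Hpd without the same 4 arrays (0.072 to 0.129), Gls2 without DDMB 3 (0.0528), and Bckdhb without DDMB 3 (0.0528) or VC_1 2 (0.0537).

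Glycolysis held no call among 27 genes (3 higher and 3 lower at an unadjusted p below 0.05), at a median of 0.09 (-0.10 to 0.17 with single arrays left out). Pklr, the liver pyruvate kinase, gave -1.39 ± 0.58 (adjusted p = 0.423). Among insulin and FOXO1 targets, Igfals gave -1.09 ± 0.26 (adjusted p = 0.084), with Pck1 the only call of 22.

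Abcg5 stood out among the sterol genes. It pairs with Abcg8 in the exporter that moves cholesterol into bile, and the pair is transcribed in opposite directions from a shared promoter. The rat promoter is shown because Abcg5 was called and its partner was not; the sequence is from RefSeq, build GRCr8, chr6:15717686-15717985, plus strand, from 250 bases before the Abcg5 start to 50 bases into the gene. Capitals mark the 205 bases between the starts of Abcg5 and Abcg8.
Abcg5: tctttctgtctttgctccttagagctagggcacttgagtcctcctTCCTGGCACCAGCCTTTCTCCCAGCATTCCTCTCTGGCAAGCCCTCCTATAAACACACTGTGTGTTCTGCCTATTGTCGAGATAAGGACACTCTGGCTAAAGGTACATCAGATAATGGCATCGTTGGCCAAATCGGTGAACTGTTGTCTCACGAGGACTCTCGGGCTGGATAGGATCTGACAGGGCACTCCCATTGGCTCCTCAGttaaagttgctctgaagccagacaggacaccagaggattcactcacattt

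A search of both strands of this window found no exact consensus DR4, the direct repeat that LXR and CAR bind, and no exact consensus DR1, that of PPARalpha and RXR. These occur in 0.012% and 0.0538% of the 33469 promoters of the table. Abcg5 stood at -1.95, -2.11 and -1.82 with DDMB and at -2.82, -2.91 and -3.22 in VC_1. It rose by 1.02 ± 0.16 (2.03-fold, adjusted p = 0.00909) and lost the call without DDMB 3 (0.0641). Abcg8 stood at -2.05, -2.35 and -2.11 with DDMB and at -2.22, -2.36 and -3.04 in VC_1, and the groups overlapped, with DDMB 2 below VC_1 1: its change was 0.37 ± 0.23 (adjusted p = 0.667).

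Other LXR targets pointed both ways without passing, Abcg1 at 0.68 ± 0.24 (adjusted p = 0.309) and Abca1 at -0.34 ± 0.14. Abcg5 was the only call among 28 genes of sterol export and lipoproteins, whose median was 0.04 (-0.10 to 0.14). Cholesterol synthesis held no call among 26 genes (2 higher and 0 lower, unadjusted), at a median of 0.07 (-0.01 to 0.14). Insig2, which holds back the SREBP regulators, gave 0.48 ± 0.11 (adjusted p = 0.0684). The bile acid enzyme Cyp7a1 gave -0.72 ± 0.82, with no call among 17 genes of that pathway (2 higher and 1 lower, unadjusted).

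Of the chaperones, Hspb1 rose. It is a small heat shock protein that holds unfolding proteins and actin filaments, and a classic target of the heat shock factor HSF1. Its promoter is shown because it was the only heat shock gene called; it is from RefSeq, build GRCr8, chr12:26432252-26432551, minus strand, 250 bases before to 50 after the start. Capitals mark each GAANNTTC, the core of a heat shock element.
Hspb1: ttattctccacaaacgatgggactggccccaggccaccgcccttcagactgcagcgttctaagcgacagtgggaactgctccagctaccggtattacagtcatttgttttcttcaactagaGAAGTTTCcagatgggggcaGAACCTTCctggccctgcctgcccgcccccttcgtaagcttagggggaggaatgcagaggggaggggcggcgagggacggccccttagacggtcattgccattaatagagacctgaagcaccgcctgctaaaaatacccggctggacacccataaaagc

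The 2 matches begin 129 and 109 bases before the start. On either strand, at least 1 match of GAANNTTC occurs in 8.59% of all promoters of the table and at least 2 in 0.517%; the other spelling searched, TTCNNGAA, is in 8.77% of all promoters and not in this window. Hspb1 stood at 4.75, 4.54 and 4.64 with DDMB and at 4.01, 3.91 and 3.64 in VC_1. It rose by 0.78 ± 0.11 (1.72-fold, adjusted p = 0.00473) and kept its call without each array.

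No other gene of the heat shock list was called. Of 37 measured chaperones, the arrays of 14 lay without overlap above VC_1, against 8.75% of all genes, and of 1 below, against 5.53%. At an unadjusted p below 0.05, 9 were higher and 1 lower, against 5.71% and 4.19% of all genes, and the higher count was 5 without DDMB 3 or VC_1 2. The median change was 0.07 (0.06 to 0.09). Stip1, a co-chaperone of Hsp70 and Hsp90, gave 0.28 ± 0.07 (adjusted p = 0.0861), and Hspa4l gave -0.48 (adjusted p = 0.37). Chaperones of the endoplasmic reticulum held no call among 34 genes (1 higher and 1 lower, unadjusted), at a median of 0.00 (-0.14 to 0.10) and with Hspa5 at -0.02 ± 0.13. The integrated stress response held none among 38, at a median of -0.09. In it, Atf3 gave -0.28 ± 0.08 (adjusted p = 0.165) and Ddit3 0.24 ± 0.20. Of the list, 0 were higher and 6 lower at an unadjusted p below 0.05, against 5.71% and 4.19% of all genes. Its unadjusted lower count was 2 without VC_1 2 and 12 without VC_1 3, and its median -0.02 without DDMB 2, -0.03 without VC_1 1 and -0.20 without VC_1 3.

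The proteasome degrades proteins marked with ubiquitin, and its list held no called gene. Of 38 measured subunits and activators, 33 had positive changes and the median was 0.21, against 0.01 for all genes. The arrays of 24 lay without overlap above VC_1, against 8.75% of all genes, and of 1 below, against 5.53%. At an unadjusted p below 0.05, 24 were higher and 0 lower, against 5.71% and 4.19% of all genes; the higher count was 10 without DDMB 3, 13 without VC_1 2, 14 without VC_1 1, and 20 to 27 without any other array. The list's median deviation from the VC_1 means was 0.17, 0.16 and 0.28 on the DDMB arrays and -0.02, -0.05 and 0.08 on the VC_1 arrays, so the groups did not overlap.

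By part of the complex, all 7 alpha subunits of the core were positive, with a median of 0.23, and all 7 constitutive beta subunits were positive and without overlap, at 0.17 to 0.36. Psmb3 gave 0.36 ± 0.09 and Psmb6, a catalytic subunit, 0.32 ± 0.08, each at an adjusted p of 0.0861, the lowest of the list. The 6 base ATPases had a median of 0.20 and the 11 non-ATPase subunits of the regulatory cap 0.21, all positive. The 3 beta subunits of the immunoproteasome, which interferon induces in place of the constitutive ones, had negative changes, and none passed: Psmb8 gave -0.23, Psmb9 -0.33 and Psmb10 -0.34 (lowest adjusted p = 0.633). The activators Psme1 and Psme2 gave -0.04 and -0.07.

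**Figure D3:**
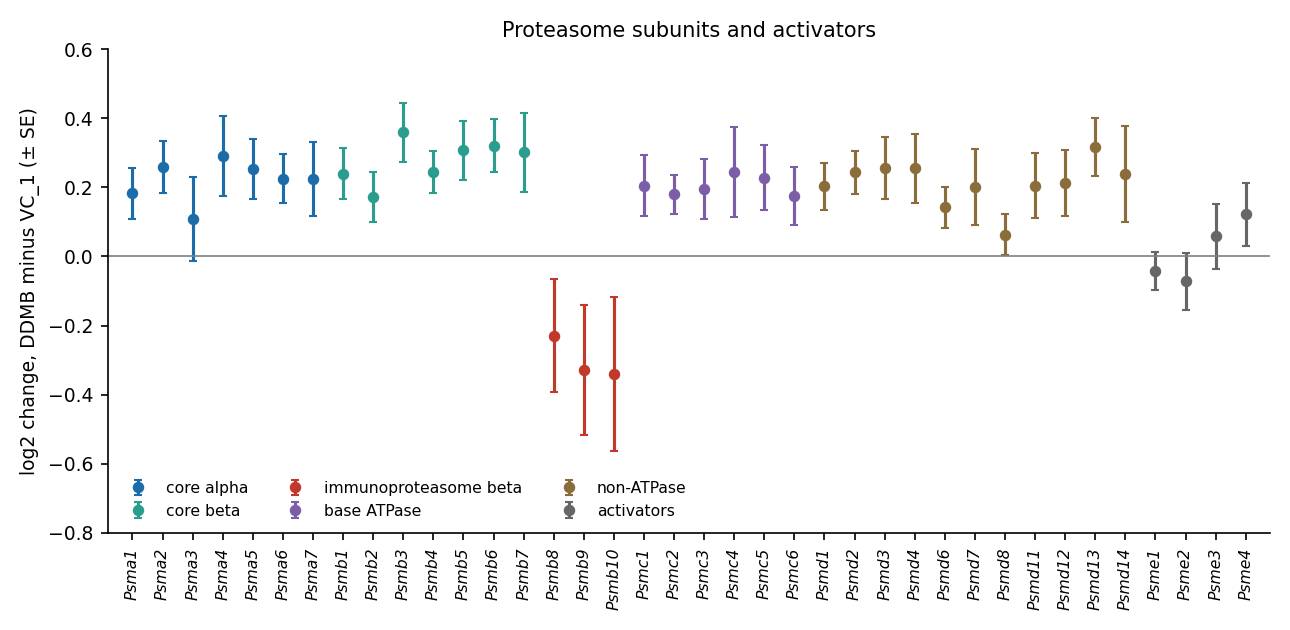
Log2 change, DDMB minus VC_1, of 38 proteasome genes with its standard error from the 18-array fit (3 arrays a group), coloured by the part of the complex. The constitutive core and cap subunits lie above 0, from 0.06 to 0.36, and the 3 immunoproteasome subunits lie below it.

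Nuclear genes of the mitochondrion leaned the same way by smaller steps. Of 52 measured genes of mitochondrial translation and import, 51 had positive changes. The arrays of 19 lay without overlap above VC_1 and of 1 below, against 8.75% and 5.53% of all genes. The list's median was 0.13 (0.11 to 0.15 with single arrays left out). None was called, and 9 were higher with 0 lower at an unadjusted p below 0.05, against 5.71% and 4.19% of all genes. Lonp1, the protease of the mitochondrial matrix, gave 0.44 ± 0.10 (adjusted p = 0.0679) and Tomm40, the pore of the outer membrane, 0.28. Of 36 complex I genes, 34 were positive at a median of 0.08, and of 52 genes of complexes II to V, 47 at 0.09. These 2 medians were each 0.02 under quantile normalization, while those of mitochondrial translation and the proteasome were 0.09 and 0.15. Ribosomal proteins were positive for 62 of 67, at a median of 0.08 (0.02 to 0.13) and 0.03 under quantile normalization. The arrays of 3 lay without overlap above VC_1, against 8.75% of all genes. At an unadjusted p below 0.05 in limma, 1 was higher, against 5.71% of all genes. Neither count exceeded the share over all genes.

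**Figure D4:**
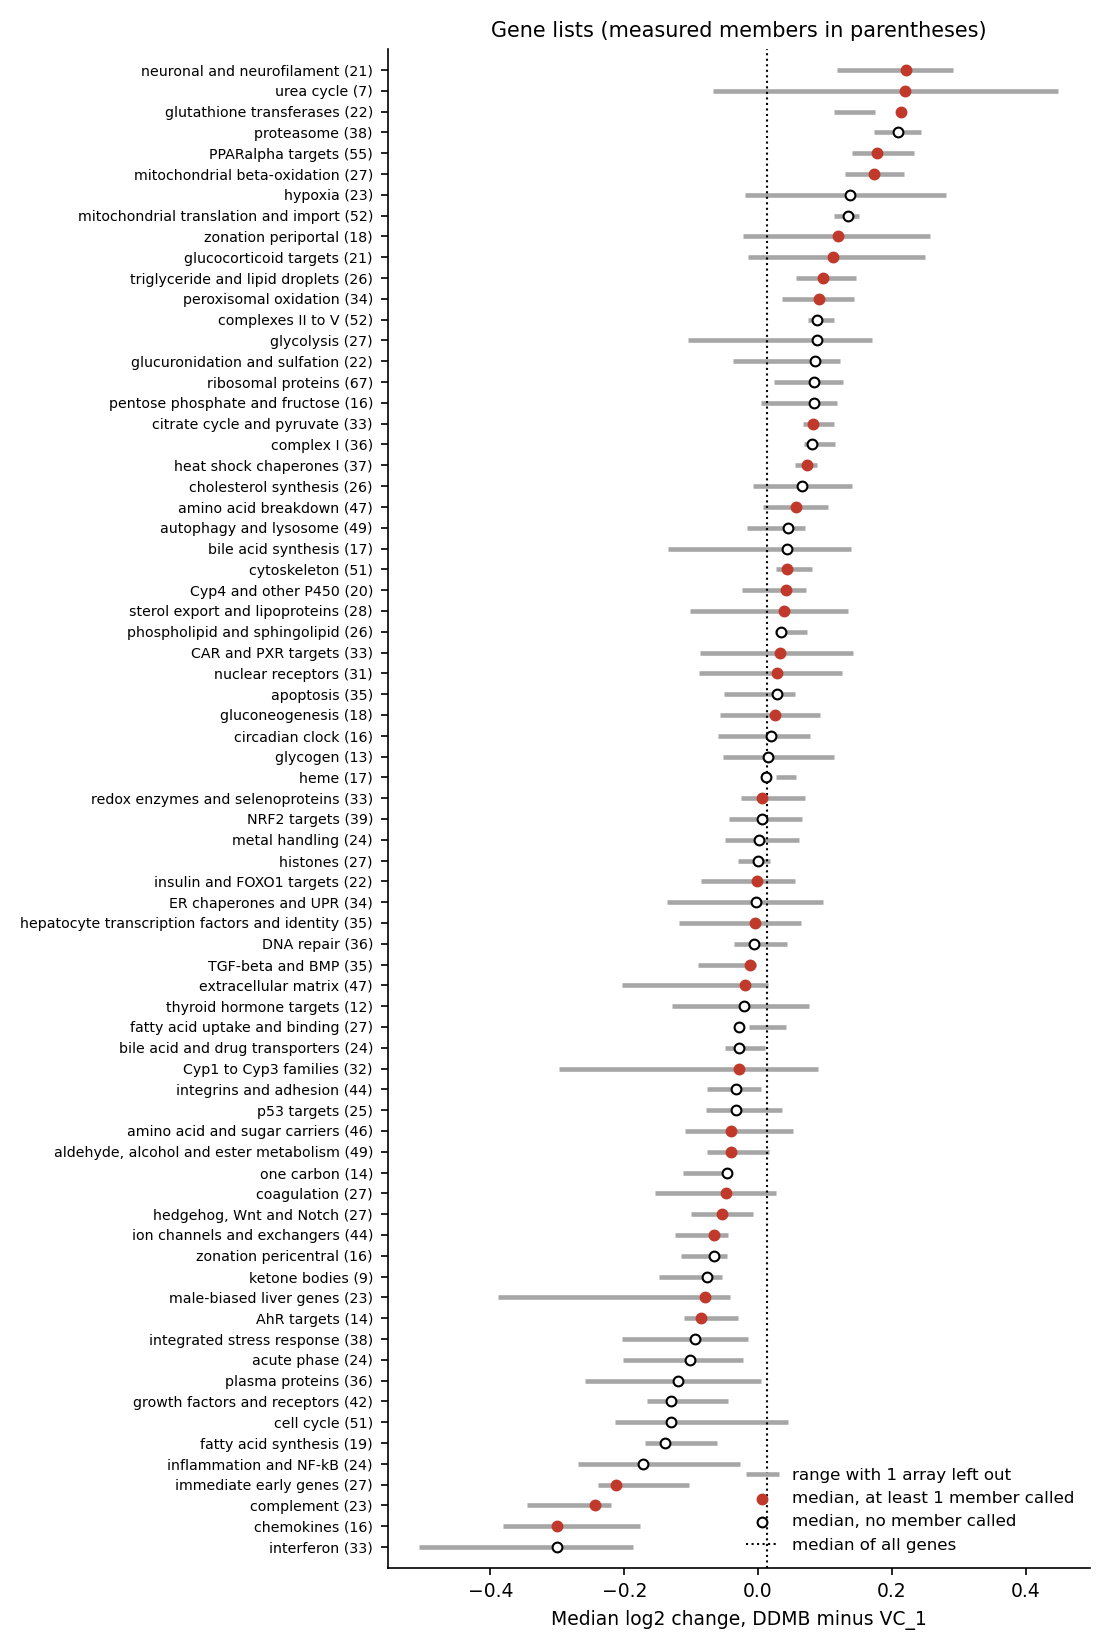
Median log2 change, DDMB minus VC_1, of the measured members of 72 gene lists (circles; red where at least 1 member was called), with the range over fits that leave out 1 array (grey) and the median of all genes, 0.01 (dotted). The 3 lists farthest to the right, neuronal and neurofilament, urea cycle, and glutathione transferases, lie at 0.21 to 0.22, followed by the proteasome, PPARalpha and mitochondrial beta-oxidation lists at 0.17 to 0.21, and interferon, chemokine and complement lists to the left at -0.30 to -0.24. With 1 array left out, the first 3 ran from 0.12 to 0.29, -0.07 to 0.45 and 0.11 to 0.17, in that order. The neuronal list was chosen with its called genes known, so its place is given as a value only.

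In complement, the plasma cascade that marks microbes for clearance, 3 protease genes fell. C1r and C1s, the paired proteases that start the classical complement pathway, both fell. C1r stood at 3.71, 3.44 and 3.30 with DDMB and at 4.02, 4.05 and 3.99 in VC_1, a change of -0.54 ± 0.11 (adjusted p = 0.039). C1s stood at 3.18, 2.75 and 2.73 with DDMB and at 3.59, 3.56 and 3.37 in VC_1, a change of -0.62 ± 0.12 (adjusted p = 0.0324). In both, DDMB 1 was the DDMB array nearest to the VC_1 arrays.

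Masp1, the protease of the lectin pathway, stood at 0.15, -0.02 and -0.04 with DDMB and at 0.98, 0.97 and 0.46 in VC_1. It fell by 0.78 ± 0.16 on the log2 scale (adjusted p = 0.0408). Of 23 measured complement genes, 3 were called, all lower, and 22 had negative changes. The arrays of 7 lay without overlap below VC_1 and of 0 above, against 5.53% and 8.75% of all genes. The median was -0.24 (-0.34 to -0.22 with single arrays left out). By array, the list's median was -0.01, -0.43 and -0.32 with DDMB and 0.18, 0.10 and -0.25 in VC_1, so VC_1 3 lay below DDMB 1. C6 gave -0.91 and C4bpb -0.83 without passing. None of the 3 calls held without DDMB 2, DDMB 3, VC_1 1 or VC_1 2 (adjusted p = 0.117 to 0.217), nor that of C1r without VC_1 3 (0.0906).

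Selenop, the selenium carrier that the liver sends to other organs, stood at 4.49, 4.77 and 4.55 with DDMB and at 5.27, 5.28 and 5.24 in VC_1. It fell by 0.66 ± 0.07 on the log2 scale (adjusted p = 0.000712) and kept its call without each array. It was the only call among 33 redox enzymes and selenoproteins, whose median was 0.01. Of 39 NRF2 targets none was called (3 higher and 4 lower at an unadjusted p below 0.05), at a median of 0.01, with Nqo1 at -0.12 ± 0.14, Gclc at -0.06 ± 0.29 and Hmox1 at -0.16 ± 0.60.

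Plasma proteins as a list of 36 held no call (2 higher and 4 lower, unadjusted) and a median of -0.12, which was 0.00 without DDMB 2 and -0.26 without DDMB 1, and Alb gave -0.02 ± 0.14. Pcsk5, a convertase that trims secreted precursors, stood at -1.16, -1.40 and -1.25 with DDMB and at -1.94, -1.86 and -1.87 in VC_1. It rose by 0.62 ± 0.09 (adjusted p = 0.00665). Procr, the protein C receptor, stood at -0.18, -0.64 and -0.50 with DDMB and at -1.28, -1.24 and -1.09 in VC_1. It rose by 0.76 ± 0.12 (adjusted p = 0.0109), the only call among 27 coagulation genes, and lost the call without VC_1 1 (0.0649) or VC_1 2 (0.0659). Pla1a, a secreted phospholipase, stood at 0.34, 0.51 and 0.25 with DDMB and at 1.32, 1.18 and 1.48 in VC_1, and fell by 0.96 ± 0.10 on the log2 scale (adjusted p = 0.000625).

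Inhba, Inhbc, Ihh and Cxcl12, which encode secreted signalling proteins, fell. Inhba and Inhbc encode subunits of activins, ligands of the TGF-beta family that liver cells secrete. Inhba stood at 0.45, 0.08 and -0.26 with DDMB and at 0.96, 0.82 and 0.86 in VC_1, a change of -0.79 ± 0.16 (adjusted p = 0.0438). Inhbc stood at -1.74, -2.05 and -2.01 with DDMB and at -0.95, -1.14 and -1.41 in VC_1, a change of -0.77 ± 0.13 (adjusted p = 0.0181). They were the only calls of 35 genes of TGF-beta and BMP signalling, whose median was -0.01.

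Ihh, a hedgehog ligand, stood at -2.37, -2.71 and -2.95 with DDMB and at -1.97, -1.83 and -1.63 in VC_1, a change of -0.87 ± 0.13 (adjusted p = 0.00698). Its receptor Ptch1, a target of the pathway, gave -0.37 ± 0.19 (adjusted p = 0.556). Cxcl12, a chemokine that holds blood cells in tissues, stood at -1.54, -1.70 and -1.57 with DDMB and at -0.97, -0.89 and -1.34 in VC_1, a change of -0.53 ± 0.10 (adjusted p = 0.0329). It was the only call of 16 chemokines, at a median of -0.30 (-0.18 without VC_1 3 and -0.18 without DDMB 3). Ihh kept its call without each array. Inhba lost it without any array but DDMB 1 (adjusted p = 0.101 to 0.212), and Inhbc and Cxcl12 without DDMB 2, DDMB 3, VC_1 1 or VC_1 2 (0.075 to 0.17).

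Immediate early genes, which respond to growth factors and stress within minutes, leaned downward. Nr4a1 stood at -2.92, -2.58 and -2.86 with DDMB and at -2.34, -2.04 and -2.05 in VC_1, and fell by 0.64 ± 0.13 on the log2 scale (adjusted p = 0.04). Ier2 stood at 3.16, 2.92 and 2.79 with DDMB and at 3.43, 3.35 and 3.42 in VC_1, and fell by 0.45 ± 0.08 (adjusted p = 0.0311). Of 27 measured members, these 2 were called, 21 had negative changes, and the median was -0.21, though -0.10 without DDMB 3. The arrays of 7 lay without overlap below VC_1 and of 1 above, against 5.53% and 8.75% of all genes. Egr1 gave -0.86 ± 0.27 (adjusted p = 0.238). Nr4a1 lost its call without DDMB 1, DDMB 3, VC_1 2 or VC_1 3 (0.0931 to 0.211), and Ier2 without any array but DDMB 1 (0.0892 to 0.169).

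Interferon targets showed a lean that ran within the groups. All 33 measured members had negative changes at a median of -0.30, with Irf7 at -1.23 ± 0.83, Isg15 at -1.15 ± 1.12 and Oasl at -1.07 ± 1.04, and none was called (0 higher and 2 lower at an unadjusted p below 0.05). The list's median by array was 0.06, -0.48 and -0.47 with DDMB and 0.15, 0.10 and -0.25 in VC_1. DDMB 1 lay inside the VC_1 range, and the median change was -0.19 without DDMB 2 and -0.51 without DDMB 1.

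The largest falls among genes with a plain symbol were those of Nefl and Nefm, which encode the light and medium neurofilament chains of neurons. Nefl stood at -4.49, -3.25 and -4.78 with DDMB and at -2.66, -2.38 and -1.85 in VC_1, a change of -1.88 ± 0.39 (3.67-fold lower, adjusted p = 0.0489). Nefm stood at -4.91, -4.99 and -5.34 with DDMB, above background on 2 of these 3 arrays, and at -3.49, -3.38 and -3.11 in VC_1, a change of -1.75 ± 0.25 (adjusted p = 0.00476). A further Nefm probe gave -1.57.

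Sstr3, a somatostatin receptor, stood at -0.70, -0.51 and -0.81 with DDMB and at 0.56, 0.80 and 0.70 in VC_1. It fell by 1.36 ± 0.12 on the log2 scale (2.57-fold lower), with the lowest adjusted p of the genes with a plain symbol, 0.000224. Npw, the precursor of neuropeptide W, stood at -1.66, -2.13 and -2.15 with DDMB and at -1.09, -0.92 and -1.27 in VC_1, and fell by 0.89 ± 0.13 (adjusted p = 0.00651). Car11, a carbonic anhydrase relative without enzyme activity, was not well above background on any DDMB array but was on all 3 VC_1 arrays. It was at least 1.54-fold lower with DDMB, a bound set by the dimmest detected probes (adjusted p = 0.0139).

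Rises in the same neuronal list were Unc5d, a netrin receptor, Colq, the collagen tail of acetylcholinesterase, Cpne9, a calcium-binding copine, and Pcp4l1, a small Purkinje cell protein relative. Unc5d stood at -2.72, -3.46 and -2.76 with DDMB and at -4.03, -4.07 and -4.55 in VC_1, a rise of 1.23 ± 0.21 (adjusted p = 0.0163). Colq stood at -1.69, -1.72 and -1.53 with DDMB and at -2.48, -2.52 and -3.15 in VC_1, a rise of 1.07 ± 0.20 (adjusted p = 0.0311). Cpne9 rose by 0.93 ± 0.18 (adjusted p = 0.0337) and Pcp4l1 by 0.86 ± 0.13 (adjusted p = 0.00756). The list, chosen with these genes known, held 8 calls of 21 measured, 4 higher and 4 lower.

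In the matrix list, 3 of 47 measured genes were called, all lower, and the median was -0.02, but -0.20 without DDMB 2 and 0.01 without DDMB 3. Spon2, a secreted spondin, stood at -3.85, -4.04 and -4.74 with DDMB and at -2.74, -2.84 and -3.31 in VC_1, a change of -1.25 ± 0.24 (adjusted p = 0.0354). Ogn and Omd encode leucine-rich proteoglycans, osteoglycin and osteomodulin. Ogn stood at -3.95, -3.0 and -3.18 with DDMB and at -2.29, -2.23 and -2.0 in VC_1, a change of -1.20 ± 0.23 (adjusted p = 0.0311).

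Omd stood at 2.10, 2.44 and 2.26 with DDMB and at 2.79, 2.83 and 3.10 in VC_1, and fell by 0.64 ± 0.10 on the log2 scale (adjusted p = 0.00665). The stellate and fibroblast sums given above overlapped between the groups, and the part of such cells in the falls of Spon2, Ogn and Omd was not tested. Of that marker list, 7 of 9 measured genes had positive changes, and the median was 0.11 (-0.16 to 0.26). Timp2 gave -1.12 ± 0.25 (adjusted p = 0.0679). Tuba1c, an alpha-tubulin, was the only call of 51 cytoskeleton genes. It stood at 8.21, 8.04 and 8.19 with DDMB and at 7.80, 7.75 and 7.83 in VC_1, and rose by 0.35 ± 0.06 (adjusted p = 0.0167).

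Without single arrays, Nefm, Sstr3, Npw and Omd kept their calls. Nefl lost its call without any array but DDMB 2 (adjusted p = 0.0954 to 0.265), Car11 without DDMB 3, VC_1 1 or VC_1 3 (0.0548 to 0.0603), and Spon2 without any array but DDMB 1 and VC_1 3 (0.0713 to 0.192). Ogn lost it without DDMB 3 or any VC_1 array (0.083 to 0.115), Unc5d without DDMB 3, VC_1 2 or VC_1 3 (0.0537 to 0.115), and Colq without any array but DDMB 1 (0.0549 to 0.169). Cpne9 lost it without DDMB 2, DDMB 3, VC_1 1 or VC_1 2 (0.103 to 0.206), Pcp4l1 without DDMB 3 (0.0528), and Tuba1c without DDMB 3, VC_1 1 or VC_1 2 (0.0724 to 0.116).

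The solute carriers Slc9a9, Slc17a4, Slc26a1 and Slc43a2 fell. Slc9a9, an endosomal sodium and proton exchanger, changed by -0.74 ± 0.07 (adjusted p = 0.000459) and Slc17a4, an anion carrier, by -0.48 ± 0.06 (adjusted p = 0.00302). Slc26a1, a sulfate carrier, stood at 4.77, 4.83 and 5.07 with DDMB and at 5.26, 5.30 and 5.30 in VC_1, a change of -0.40 ± 0.07 (adjusted p = 0.0311). Slc43a2, a carrier of large neutral amino acids, stood at -1.73, -1.41 and -1.45 with DDMB and at -1.08, -1.11 and -1.09 in VC_1, a change of -0.44 ± 0.08 (adjusted p = 0.0224).

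The drug and bile acid transporters held no call among 24 measured genes, with Slco1a1 at -0.72 ± 0.17 (adjusted p = 0.0861). Of the 24, 3 were higher and 4 lower at an unadjusted p below 0.05, against 5.71% and 4.19% of all genes. Slc9a9 and Slc17a4 kept their calls without each array. Slc26a1 lost its call without any array but DDMB 3 (adjusted p = 0.0687 to 0.138), and Slc43a2 without DDMB 3 or any VC_1 array (0.0528 to 0.0994).

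Of the called genes, 36 with a plain symbol stood on none of the lists. The largest of those not yet described was Cimip2a, a ciliary microtubule protein, with a rise of 1.00 ± 0.21 (adjusted p = 0.0489). Smaller rises were those of Eif4ebp3, a translation repressor, at 0.49 ± 0.08 (adjusted p = 0.0113), Uhmk1 at 0.48, Gmfb at 0.40, Lyrm7, an assembly factor of respiratory complex III, at 0.40 ± 0.06 (adjusted p = 0.00665), Ip6k2 at 0.38, Rhpn2 at 0.37, Dph3 and the phospholipase Pla2g6 at 0.35, Fubp1 at 0.31, Mrto4 at 0.27 and Hook3 at 0.25. Lyrm7 kept its call without each array. For each of the others at least 1 array ended the call: Cimip2a (adjusted p = 0.069 to 0.265), Eif4ebp3 (0.0737 and 0.0788) and Uhmk1 (0.0528 to 0.083) all lost it without DDMB 3 and without VC_1 2.

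The falls outside the lists included enzymes and surface proteins. Bco2, which cleaves carotenoids in the mitochondrion, fell by 0.58 ± 0.08 on the log2 scale (adjusted p = 0.00473). Gda, the guanine deaminase, stood at 5.01, 5.10 and 5.10 with DDMB and at 5.53, 5.56 and 5.73 in VC_1, and fell by 0.54 ± 0.09 (adjusted p = 0.0174). Others were Abhd11-as1 at -0.71 ± 0.09 (adjusted p = 0.00354), Mab21l4 at -0.71, Cfap100 at -0.66, Clybl, a mitochondrial citramalyl-CoA lyase, at -0.64, Crip1 at -0.58, Cfap95 and Calml4 at -0.57 each, the lectin Cd302 at -0.50, C1qtnf6 at -0.47, Plekhb1 at -0.46, Klhdc9 at -0.44, Bmerb1 at -0.43, Igflr1 at -0.42, Spag1 at -0.37, Tcn2, which carries vitamin B12 in plasma, at -0.36, Large2 at -0.33, and Tmem109 and Smpdl3a at -0.26 each. Among these, Bco2, Abhd11-as1, Crip1 and Calml4 kept their calls without each array, and Gda lost its call without DDMB 3, VC_1 2 or VC_1 3 (0.0632 to 0.069).

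7 calls were lost whichever array was left out, those of Abcd3, Mrto4, Dph3, Ip6k2, Fubp1, Klhdc9 and Smpdl3a, with adjusted p from 0.053 to 0.268. The remaining genes outside the lists (Gmfb, Rhpn2, Pla2g6, Hook3, Mab21l4, Cfap100, Clybl, Cfap95, Cd302, C1qtnf6, Plekhb1, Bmerb1, Igflr1, Spag1, Tcn2, Large2 and Tmem109) each lost the call without 2 to 5 of the arrays, at 0.0517 to 0.265. For all of these but Mab21l4 and Bmerb1, DDMB 3 and VC_1 2 were among those arrays.

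Damage and growth programs gave no call. The 25 p53 targets had a median of -0.03 (3 higher and 0 lower at an unadjusted p below 0.05 in limma), with Cdkn1a at 0.05 ± 0.25 and Mdm2 at -0.03 ± 0.07. DNA repair (36 genes), apoptosis (35), autophagy and lysosome (49), hypoxia (23) and growth factors and their receptors (42) had medians from -0.13 to 0.14. The cell cycle list of 51 genes had a median of -0.13, and by array of -0.25, 0.23 and -0.22 with DDMB and -0.21, -0.19 and 0.49 in VC_1; without VC_1 3 the median was 0.04. Over the lists, 34 of 80 held at least 1 called gene. A p that misses the threshold does not show that a gene or list was the same in both groups.

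The other compounds were given at the same 300 µM for 24 h, and 3 pairs were compared, each adjusted over all genes. DDEB was measured against its own control, so its effect shares no array with that of DDMB. VC_2 and DDEB 1 and 2 shared another slide, but DDEB 3 lay on a further slide. The DDEB effect is thus not wholly a comparison within 1 slide. Of the 120 genes called with DDMB, 115 had the same sign with DDEB (95.8%), and 35 were called there too, 29.2% of the DDMB calls and 19.2% of the 182 DDEB calls (0.844% of genes). These genes were chosen by their change with DDMB, so the sizes with the 2 compounds are given as values only. The difference of the 2 effects passed the test for 0 genes (0.0%; 1246 at an unadjusted p below 0.05, lowest adjusted p = 0.188).

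The gap was widest in Unc5d, at 1.23 with DDMB and 0.05 with DDEB, a difference of 1.19 (95% interval 0.55 to 1.82, adjusted p = 0.519). Cyp4b1 changed by 2.28 with DDMB and 1.19 with DDEB (difference 1.09, 0.02 to 2.16, adjusted p = 0.85), and Aldh3a1 by -0.94 with DDMB and -0.20 with DDEB (difference -0.74, -1.07 to -0.41, adjusted p = 0.353). Eif4ebp3 had opposite signs, 0.49 with DDMB and -0.19 with DDEB (difference 0.68, 0.44 to 0.92, adjusted p = 0.188). For Abcg5 the difference was 0.14 (-0.35 to 0.62). Unadjusted, the interval excluded 0 for 37 of the 81 genes, and its median half-width was 0.279.

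**Figure D5:**
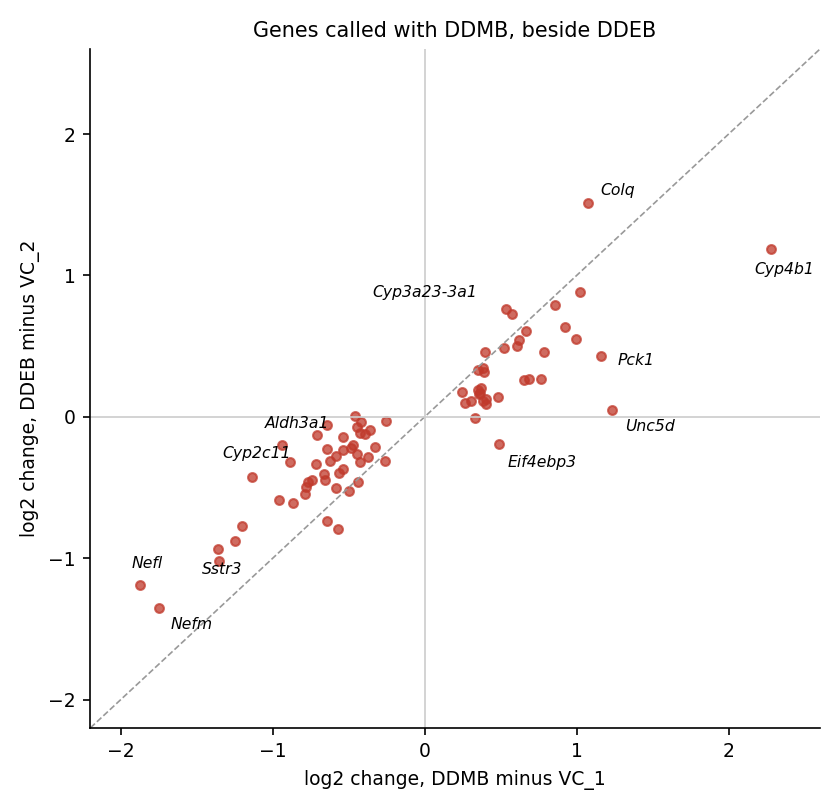
Log2 change of the 81 called genes with a plain symbol, DDMB minus VC_1 on the horizontal axis and DDEB minus VC_2 on the vertical axis, each from 3 arrays a group; the dashed line marks equal changes. The genes were chosen by their change on the horizontal axis, and 78 have the same sign on both axes.

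The CDMB and CDEB arrays lay on another slide than the DDMB and VC_1 arrays, so compound and slide cannot be told apart in their differences from DDMB or from VC_1. DDMB and CDMB differed in 146 genes (0.677%), and DDMB and CDEB in 706 (3.27%); with slide as a random block both counts were 0. DDMB exceeded CDMB by 2.22 (1.47 to 2.98, adjusted p = 0.0123) and CDEB by 2.24 (1.48 to 2.99, adjusted p = 0.00697) for Cyp4b1. For Nefm, DDMB minus CDMB was -0.03 (-0.56 to 0.50) and DDMB minus CDEB -1.07 (-1.60 to -0.55, adjusted p = 0.0339). For Hspb1 they were 0.06 (-0.17 to 0.29) and 0.45 (0.22 to 0.68, adjusted p = 0.04).

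List medians with DDMB, DDEB, CDMB and CDEB, each minus its own control, ran as follows, with the VC_1 arrays shared by all but DDEB and on the slide of DDMB only. The PPARalpha targets had 0.18, 0.40, 0.14 and 0.23, in that order of compounds. The proteasome had 0.21, 0.14, 0.03 and -0.05. The complement genes had -0.24, -0.14, 0.13 and 0.17, and the immediate early genes -0.21, 0.00, -0.15 and -0.12. The differences between these medians were not tested.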

How the data were processed

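Arrays were scanned and extracted by the authors with Agilent Feature Extraction 10.7.1.1, whose background-subtracted processed signal is an intensity per spot, per the file headers. The deposited normalized table holds the authors' linear signal of the first lot. Its values over 1 were proportional to the processed intensity divided by the array's 75th percentile. The ratio of the 2 had a median of 0.993 to 0.998 by array, and 100% of such probes lay within 1% of that median. This table was used on a log2 scale, with a floor of 0.001, as an alternative. From the scanner files, control and flagged spots were left out, spots of a probe were averaged, and log2 intensity minus the array's 75th percentile was taken. Probes above background on all 3 arrays of any group were kept (25306 of 45163), and the brightest probe stood for a gene. Of 45598 probes, 21109 matched a RefSeq gene name by accession and 24489 are not named. No probe spot was saturated.

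limma 3.58.1 (R 4.3.3) fitted 6 group means to 18 arrays, with 12 residual degrees of freedom, after a test on simulated data. Exact permutation tests used scipy 1.17.1. The number of arrays limits the precision. Replicate numbers did not pair the cultures: deviations of same-numbered arrays correlated at 0.557, -0.421 and 0.0917.

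Every called gene with a plain symbol is named, apart from results not reported here. For each list the text describes, its called members and up to 4 members with the largest changes are eligible, and a fixed set of metabolic and stress genes was added. The members and lists were chosen with earlier results of these data known. Alternatives covered background correction, scaling, filter, probe choice, variance model, slide, replicate number and single arrays.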

Additional observations from a re-analysis of the deposited data

Results flagged for a closer look

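The direct difference between compounds was called for 146 genes with DDMB minus CDMB and for 706 genes with DDMB minus CDEB. Of the 120 genes called with DDMB, 41 and 90 were among these; the comparisons share the same 3 DDMB arrays, so the overlap is given as a count only. These arrays lay on different slides, so compound and slide cannot be told apart. Cxcl12 was called in both directions against the shared VC_1 arrays, at -0.53 with DDMB and 0.61 with CDEB, and DDMB minus CDEB was -1.15.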

How the results depend on the processing

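The count of 120 called genes was 65 with normexp background correction, 37 with median scaling and 52 with no filter on dim probes (39169 genes tested). It was 0 with the 6 arrays alone, 193 with slide as a random block and 254 with slide as a fixed block. Each group but DDEB lay on 1 slide, so the fixed block only took the array DDEB 3 out of the residual spread. The cause of these changes in count was not tested. Leaving out 1 array gave 39 to 204. The share of calls that were higher was 41.7%, against 29.9% with quantile normalization and 27.0% with median scaling. The other settings (the authors' deposited table, all 18 arrays above background, mean over probes, first lot alone, variance trend, robust variance) gave 89 to 163. No called gene with a plain symbol changed sign under any of these, but several of the settings leave the change itself as it was. With the first lot alone, the variance trend or the robust variance, no sign could turn. Of the 81 such calls, 21 were kept with median scaling, 41 with normexp, 44 with the first lot alone, 45 with the authors' deposited table, 57 with quantile normalization, and 26 to 68 without 1 array. The median of a gene list turned its sign in 23 of 79 lists without VC_1 3, 18 without DDMB 1, 16 without DDMB 2, 14 without VC_1 1, 7 without VC_1 2 and 6 without DDMB 3, and in 11 with quantile normalization, 7 with median scaling and 2 with normexp. With a replicate block, the count was 0 over the 6 arrays (1442 at an unadjusted p below 0.05 in limma). Over 18 arrays the block gave 114. Whether the numbers pair the cultures is not known. With DDMB minus CDMB, 146 became 0 with slide as a random block and 231 with the replicate block; with DDMB minus CDEB, 706 became 0 and 1202. The 0 genes for the difference of the DDMB and DDEB effects became 1 with quantile normalization and 2 with the replicate block. Array weights were not run because their estimate did not converge. Of the 120 calls, 5 were not above background on all 6 arrays, so signal over background limits their size.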
